A study of Arabidopsis thaliana with 18 samples.

Results

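The step described here is the vegetative path of the male gametophyte of Arabidopsis thaliana, from wild-type (WT) late microspores (LMS) to the vegetative cell (VC) nuclei of mature WT pollen. Its members are the AGI loci AT1G to AT5G listed in both gene tables of the series, 20582 loci out of 31386 entries of either table. No expression threshold was added to this choice, but neither table lists a locus at 0 in all of its libraries. A locus listed in both therefore had some value above 0 in each. The series profiled 18 libraries, and this comparison uses 3 of WT LMS and 3 of WT VC, with 3 of WT sperm cell (SC) nuclei set beside them. The VC and SC libraries labelled V-Mt enter only the gene filter and the spread of the test of VC against SC. The 2 tables were made separately from different RNA (total RNA of whole cells for LMS, polyadenylated RNA of nuclei for VC and SC). Cell stage, compartment, RNA preparation and table therefore cannot be told apart, no test was run across the tables, and genes were compared by their percentile rank within each library (0 lowest, 100 highest, ties averaged).

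All plants were Col-0. The LMS line carried pHTR10:HTR10-RFP, a sperm histone fused to a red fluorescent protein. The WT pollen line carried that fusion together with pACTIN11:H2B-GFP, a green histone that marked the VC nuclei. Microspores were released from unopened buds and sorted by their green autofluorescence, with red grains left out to remove bicellular pollen, at about 100000 microspores per sample. Nuclei came from vortexed mature pollen and were sorted as green (VC) or red (SC). Reads of HTR10-RFP and H2B-GFP may enter the values of the HTR10 and H2B genes, which was not tested. The labels number the replicates without saying whether they came from separate plants, so the spreads given below may be technical.

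A microspore is the single haploid cell released from meiosis, and it still lies in the anther beside the tapetum, the nurse tissue that supplies the pollen coat. It divides unequally into a small generative cell, which forms the sperm, and a large vegetative cell, which stops dividing and later grows the pollen tube. Tube growth is known to run on ROP GTPases and their exchange factors, a calcium gradient at the tip, reactive oxygen species, actin-guided secretion and a soft pectin wall. Mature pollen is also known to hold much of the RNA it will need on germination.

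Libraries within a group ranked the genes alike to a different degree. Spearman's correlation over the loci was 0.698 to 0.732 between LMS libraries and 0.869 to 0.934 between VC libraries, against 0.218 to 0.313 between an LMS and a VC library. VC replicates 2 and 3 stood closer than any other pair, with a robust SD of their log2 ratio of 0.121 at 300 to 1000 FPKM (fragments per kilobase of transcript, scaled to the library), against 0.542 to 0.588 for each with replicate 1. Between 16104 and 16300 loci reached 1 FPKM in LMS, 7371 to 7576 in VC and 10815 to 11601 in SC. The share of loci listed at 0 was 15.1% to 15.5% in LMS and 47.5%, 36.1% and 35.5% in VC replicates 1, 2 and 3. A gene at 0 therefore sat at percentile 7.55 to 7.78 in LMS but at 17.7 to 23.8 in VC. Even a gene listed at 0 in a VC library could thus be called gained. Some genes were therefore called gained by rank while their mean FPKM in VC was not higher than in LMS, and each list that holds such genes is given with its number of gained members whose mean FPKM was higher in VC. Genes of the organelle genomes held 6.38% to 6.48% of FPKM in LMS and at most 0.001% in VC.

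Both stages carried their labelled identity in part. MYB81, a MYB factor needed for the microspore to enter its division, stood at 99.88, 104.51 and 76.62 FPKM in LMS replicates 1, 2 and 3 and at 0, 0 and 0.02 FPKM in VC. LBD27, a factor that acts with LBD10 in microspore polarity, stood at 76.12, 123.9 and 38.16 FPKM in LMS and at 0, 0.21 and 0.08 FPKM in VC. Both genes were called lost, which requires that their ranks do not overlap between LMS and VC. The other fixed microspore markers went the opposite way. LBD10 stood at 8.77, 4.7 and 50.2 FPKM in LMS and at 317.73, 416.52 and 415.46 in VC. BZIP34, a basic leucine zipper factor of pollen, was listed at 0, 4.18 and 1.97 FPKM in LMS and stood at 86.96, 125.13 and 115.52 in VC. The 12 vegetative markers summed to 7729 to 9236 FPKM in VC, to 2445 to 5743 FPKM in SC, and to 202.87, 2229 and 1337 FPKM in LMS replicates 1, 2 and 3. Most of each LMS sum came from the pectin methylesterase VGD1 and the arabinogalactan proteins AGP6 and AGP11. AGP11 stood at 9.78, 1008 and 554.76 FPKM in LMS replicates 1, 2 and 3. PPME1, ANX1, ANX2 and ACA9 were also higher in LMS replicates 2 and 3 than in replicate 1. RBOHH, CPK34, PRK6 and CNGC18 stood at 0.9 FPKM or less in every LMS library. What sets the LMS replicates apart was not tested.

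Markers of other cells moved with the comparison. The 13 tapetum and anther wall markers summed to 407.56 to 607.55 FPKM in LMS and to 15.48 to 23.6 FPKM in VC; 3 of the 13 (DYT1, TDF1 and MYB80) had no LMS value, and 8 stood at 1 FPKM or more in all LMS libraries. A9, a tapetum lipid transfer protein, stood at 284.88, 252.77 and 144.05 FPKM in LMS and was listed at 0 in each VC library. The 8 green tissue markers summed to 9798 to 10541 FPKM in LMS and to 4.23 to 8.33 FPKM in VC, where 5 of them were listed at 0 in all 3 libraries. The 9 sperm markers summed to 37.82 to 189.78 FPKM in LMS, to 237.06 to 296.8 FPKM in VC and to 17333 to 23111 FPKM in SC. How far tapetum, green tissue or sperm RNA enters the genes lost and gained was not tested.

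**Figure D1:**
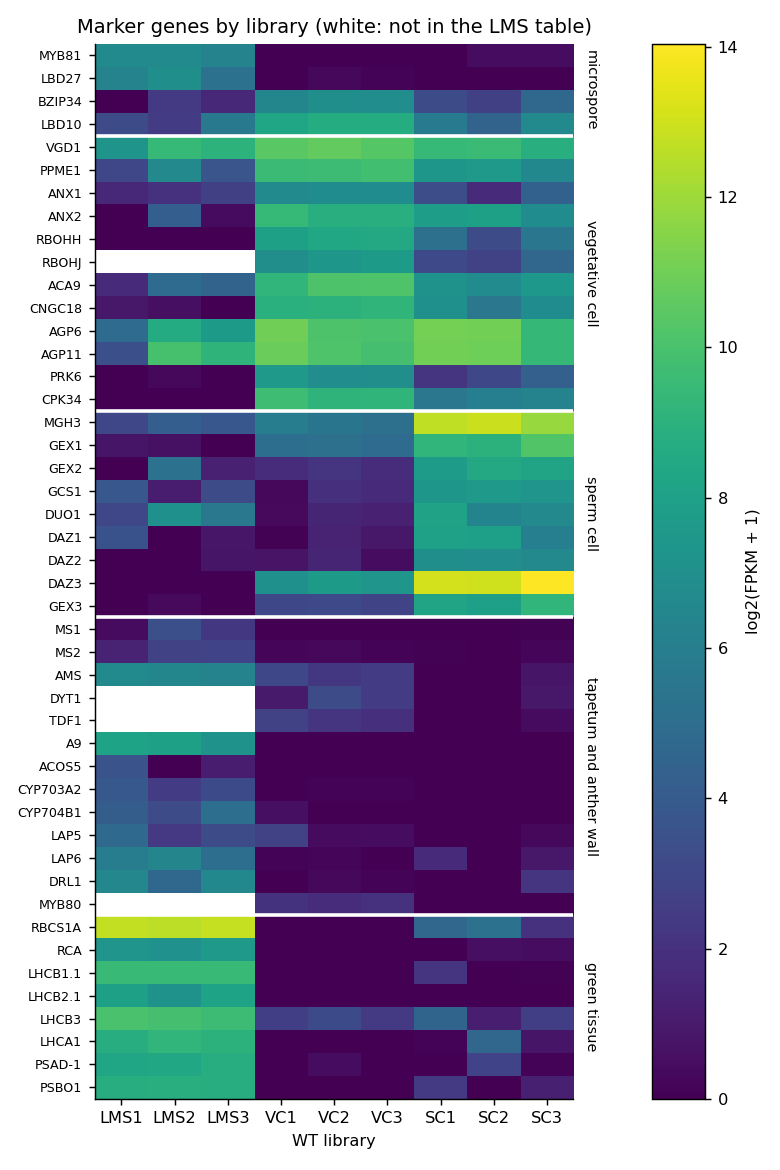
Marker genes of microspore, vegetative cell, sperm cell, tapetum and green tissue (rows) in each WT library of LMS, VC and SC (columns), coloured by log2(FPKM + 1), with white where the LMS table lists no value. Green tissue and several tapetum markers are strong in the 3 LMS libraries and near 0 in VC. LMS replicate 1 holds less of the vegetative markers VGD1, AGP6 and AGP11 than replicates 2 and 3.

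Promoters of 4 genes are shown because the genes mark both directions of the step. Each is the 250 bases before the gene start in the TAIR10.1 annotation, written 5′ to 3′ on the gene's strand, with motif matches in capitals. CHX23 (chr1:1668925-1669174, minus strand), a pollen cation/proton exchanger, and PRK3 (chr3:14954113-14954362, plus strand), a pollen receptor-like kinase, were gained. They were the first gained members of their lists whose window holds a MEF2-type CArG-box, the site favoured by the MIKC* MADS factors of pollen, and were chosen after their values were seen. AT2G37600 (chr2:15775375-15775624, minus strand) encodes a ribosomal protein of the L36e group and was lost. Its capitals mark a telo-box (AAACCCTA on the opposite strand) and 3 site II elements (TGGGCC or TGGGCT on either strand), which are known from genes of the plant translation machinery. MSP2 (chr5:18988198-18988447, minus strand), annotated as microspore-specific promoter 2, was lost and holds none of these letters in this window.
CHX23: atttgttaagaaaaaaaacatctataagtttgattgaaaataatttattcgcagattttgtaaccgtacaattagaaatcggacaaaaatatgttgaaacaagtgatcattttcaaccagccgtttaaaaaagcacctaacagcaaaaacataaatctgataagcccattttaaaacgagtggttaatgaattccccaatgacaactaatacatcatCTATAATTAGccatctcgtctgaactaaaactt
PRK3: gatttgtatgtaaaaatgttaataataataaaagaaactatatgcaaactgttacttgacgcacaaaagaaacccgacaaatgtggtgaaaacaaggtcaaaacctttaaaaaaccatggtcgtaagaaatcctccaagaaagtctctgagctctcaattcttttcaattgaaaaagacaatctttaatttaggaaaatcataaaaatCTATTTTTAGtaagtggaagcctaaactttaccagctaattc
AT2G37600: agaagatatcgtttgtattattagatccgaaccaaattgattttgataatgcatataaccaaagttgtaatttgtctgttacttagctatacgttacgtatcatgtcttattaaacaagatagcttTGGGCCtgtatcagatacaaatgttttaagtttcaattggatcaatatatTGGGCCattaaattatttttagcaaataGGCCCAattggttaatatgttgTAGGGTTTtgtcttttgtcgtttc
MSP2: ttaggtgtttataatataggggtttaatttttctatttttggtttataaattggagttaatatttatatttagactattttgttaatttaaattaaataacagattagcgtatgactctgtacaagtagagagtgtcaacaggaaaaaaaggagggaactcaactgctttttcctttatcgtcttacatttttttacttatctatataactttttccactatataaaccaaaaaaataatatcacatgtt

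The CArG-box match lay 33 to 24 bases before the gene start in CHX23 and 42 to 33 bases before it in PRK3. Searched on both strands, this motif was held by 1.96% of all 20504 promoters, by 3.38% of those of gained genes and by 1.27% of those of lost genes. It was held by 2 of 29 promoters of the calcium and ion transport list, 3 of 28 of the receptor list and 0 of the 15 top gained genes. The telo-box was held by 4.61% of all promoters, by 6.01% of the lost and by 18.5% of the 130 annotated ribosomal protein genes. Site II elements were held by 22.6% of all promoters, by 29.0% of the lost and by 60.8% of the ribosomal protein genes. A match is a run of letters, and binding was not measured.

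CHX23 stood at 5.81, 53.46 and 19.23 FPKM in LMS and at 961.4, 1257 and 1137 in VC, 39.3 points higher in rank. PRK3 stood at 0, 33.25 and 6.02 FPKM in LMS and at 210.61, 315.25 and 328.05 in VC, 57.5 points higher. AT2G37600 stood at 1044, 1183 and 1087 FPKM in LMS and at 0, 0 and 0.3 in VC, 67.6 points lower in rank. The rule of the call, given below, requires that the ranks of both stages do not overlap, so it holds for each of these genes.

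The step moved a large part of the transcript ranking in both directions. A gene was called gained where its lowest VC percentile lay above its highest LMS percentile and the means differed by at least 25 points, and lost in the reverse case. This gave 3901 gained loci, 19.0% of those compared, and 3785 lost loci, 18.4%. Both totals are descriptions of 3 libraries against 3. Counts of the gene lists below are to be read against these shares. The rule also limits the calls a gene can get. A gene within 25 points of the top rank in LMS could not be called gained. A gene at 0 in all VC libraries had a mean percentile of 19.8. A gene less than 25 points above that in LMS could not be called lost. Lists ranked high in LMS thus have fewer members open to gain, and lists ranked low have fewer open to loss. Of the gained loci, 2738 also had the higher mean FPKM in VC, 2307 stood at 5 FPKM or more in all VC libraries, and 431 stood under 1 FPKM in all of them. The lost loci had the lower mean FPKM in VC in all 3785 cases, and 1804 of them were listed at 0 in each VC library. On the deposited scales, 145 loci (0.704%) went from under 1 FPKM in all LMS libraries to 5 FPKM or more in all VC libraries, here called switched on, and 4516 (21.9%) went the other way, here called switched off. The count switched on was 276 without LMS replicate 2 and 226 without LMS replicate 3.

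**Figure D2:**
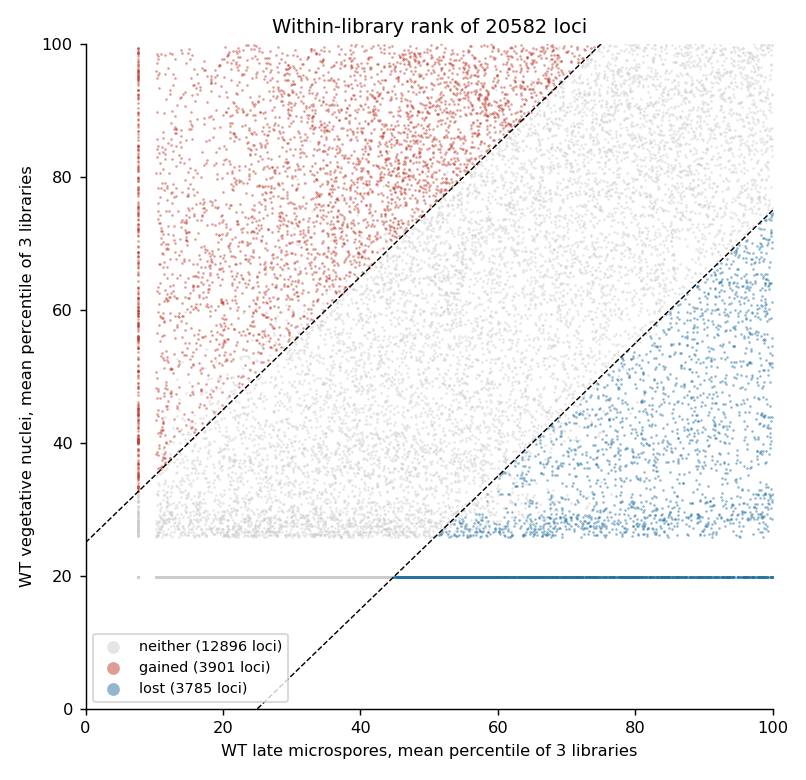
Mean percentile over 3 WT LMS libraries (x axis) and over 3 WT VC libraries (y axis) for the 20582 loci, coloured by whether a locus was gained (3901), lost (3785) or neither. The band of points at the lower edge of the cloud in VC is the tied rank of genes listed at 0 there.

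The 15 genes that gained most in rank, among those with a mean of at least 20 FPKM in VC, were listed at 0 in every LMS library. Several belong to the ROP switch and its calcium and oxygen branches. RIC5 (AT3G23380, chromosome 3, 8373375 to 8375098), a ROP-interactive CRIB protein and so an effector of active ROP, stood at 2084, 1092 and 1171 FPKM in VC, 91.8 points higher. RBK2 (AT3G05140, chromosome 3, 1435617 to 1438539), a ROP-binding kinase, stood at 458.23, 1038 and 1033 FPKM. ROPGEF12 (AT1G79860), which loads ROP with GTP, stood at 378.87, 359.33 and 392.91 FPKM. CPK34 (AT5G19360), a calcium-dependent kinase of pollen tubes, stood at 804.5, 550.76 and 582.89 FPKM, and RBOHH (AT5G60010), an NADPH oxidase that makes superoxide at the tube tip, at 250.08, 346.72 and 353.68 FPKM. VC replicate 1 was the highest of the 3 for RIC5 and CPK34 and the lowest for RBK2 and RBOHH.

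The other 10 are less well known. AT3G05150 (chromosome 3, 1440014 to 1443730), a major facilitator transporter, is annotated next to RBK2 on the opposite strand and stood at 840.98, 1596 and 1586 FPKM in VC, with the same low replicate 1. AT4G15980 and AT2G31425, of the pectin methylesterase and invertase inhibitor superfamily, stood at 711.88, 622.92 and 707.15 FPKM and at 350.53, 221.45 and 257.04 FPKM. AT5G25310, an exostosin-family protein, stood at 862.02, 850.57 and 847.66 FPKM, the smallest SD of the 15. The remaining 6 with a product name or none were AT4G04980 (uncharacterized), AT5G24230 (lipase class 3-related), AT5G07170 (a microtubule-associated protein by annotation), AT3G11740 (LURP-one-like), AT2G24320 (alpha/beta-hydrolase) and AT3G28490 (oxoglutarate/iron-dependent oxygenase). Their VC means ran from 285 FPKM for AT3G28490 to 1012 FPKM for AT4G04980.

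Within the pollen table, VC and SC could be tested. In limma on log2(FPKM + 1), 2591 of 19733 genes (13.1%) were higher in WT VC than in WT SC and 5390 (27.3%) were lower, at a Benjamini-Hochberg adjusted p under 0.05. The split depended on scaling, with 4022 higher and 4413 lower after median-ratio scaling and 4514 higher and 3815 lower after quantile normalization. The median log2 fold change of all genes was −0.36 as deposited, −0.07 and 0.06 under these scalings. The contrast shares the VC libraries with the rank comparison, so its values are set beside the gained genes and are no independent evidence.

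All 15 top gained genes passed as higher in VC than SC. RIC5 had SC values of 47.24, 52.8 and 182.05 FPKM and a VC over SC log2 ratio of 4.15 (SE 0.57, limma adjusted p = 0.000186). AT4G15980 had 4.51 (SE 0.47, limma adjusted p = 2.4e-05), and RBOHH had 3.65 (SE 0.89, limma adjusted p = 0.00726). The smallest was AT5G25310, at 2.17 (SE 0.33, limma adjusted p = 0.000362). The calls of AT3G05150, AT3G11740 and ROPGEF12 did not hold under every alternative: for example, AT3G05150 at 3.18 without SC replicate 2, AT3G11740 at 3.13 without SC replicate 1 and ROPGEF12 at 3.08 without SC replicate 1 did not pass.

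**Figure D3:**
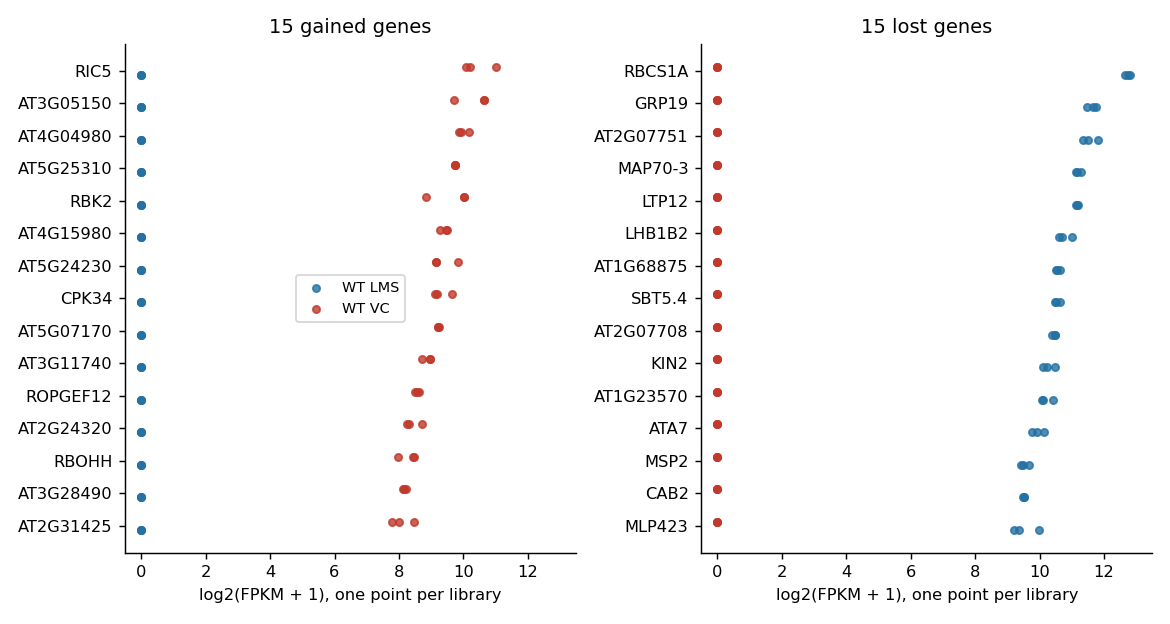
The 15 gained and the 15 lost genes with the largest change in mean percentile, 1 point per library on log2(FPKM + 1), with LMS and VC coloured apart. All 15 gained genes lie at 0 in the 3 LMS libraries and all 15 lost genes at 0 in the 3 VC libraries.

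Ion transport and calcium signalling had the largest share of gained members among the 29 lists. Of its 29 members in both tables, 25 were gained and none was lost, with a median difference of 55.1 points against 0.67 over all loci. Of the 25, 24 stood at 5 FPKM or more in all VC libraries. The exception, GLR1.2, was listed at 0 in each LMS library and stood at 0, 0.44 and 0.34 FPKM in VC, so its gain rests on the ranks of low values. CNGC18 (AT5G14870), a cyclic nucleotide-gated calcium channel essential for tube growth, stood at 0.9, 0.47 and 0 FPKM in LMS and at 488.7, 520.3 and 570.32 in VC. CNGC16 stood at 0 in each LMS library and at 168.08, 88.26 and 96.62 FPKM in VC. CPK16, another calcium-dependent kinase, stood at 0, 0.33 and 0 FPKM in LMS and at 433.01, 480.16 and 527.78 in VC. These 3 genes passed from near 0 to the upper ranks.

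ACA9, a plasma membrane calcium pump, was already present in LMS replicates 2 and 3, at 2.35, 28.71 and 21.22 FPKM in LMS against 600.63, 1107 and 1156 in VC. CPK17 and CPK24, chosen after their values were seen, followed the same pattern. CPK17 stood at 0, 15.05 and 31.01 FPKM in LMS and at 2374, 1620 and 1822 in VC, and CPK24 at 0, 83.64 and 31.1 FPKM in LMS and at 2371, 1926 and 1964 in VC. Their differences of 55.1 and 43.8 points shrank to 36.7 and 19.6 without LMS replicate 1, and CPK24 was then no longer called. Against SC, 23 of 28 tested members of the list were higher in VC and 1 was lower, against 13.1% and 27.3% of all tested genes. CNGC18 was higher by 2.57 on the log2 scale (SE 0.37, limma adjusted p = 0.00025) and ACA9 by 2.67 (SE 0.35, limma adjusted p = 0.000133).

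Of the receptors and signalling proteins of the pollen tube, 20 of 28 were gained, 19 of the 20 with the higher mean FPKM, and 1 was lost, with a median of 50.1 points. PRK6, the receptor kinase that senses the ovule peptide LURE1, stood at 0, 0.25 and 0 FPKM in LMS and at 190.46, 118.89 and 123.59 in VC. PRK5, its relative, stood at 0, 0.23 and 1.59 FPKM in LMS and at 299.15, 185.79 and 191.5 in VC. ROPGEF8 stood at 0, 3.29 and 0 FPKM in LMS and at 1281, 1095 and 1118 in VC. ROPGEF9, chosen after its values were seen, had the highest VC level of the exchange factors named here, at 4988, 4144 and 4901 FPKM, but stood at 23.42, 13.06 and 20.33 FPKM in LMS and so gained 40.95 points.

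The receptor kinases that keep the tube intact, ANX1 and ANX2, differed in level. ANX1 stood at 1.96, 3.04 and 5.41 FPKM in LMS and at 104.09, 113.14 and 114.24 in VC. ANX2 stood at 0, 17.02 and 0.35 FPKM in LMS and at 668.05, 461.48 and 463.17 in VC, above ANX1 in each VC library. ANX1 was higher in VC than in SC by 3.67 on the log2 scale (SE 0.54, limma adjusted p = 0.000311) and ANX2 by 1.47 (SE 0.32, limma adjusted p = 0.00401). Their partners BUPS1 and LLG3, chosen after their values were seen, were present in at least LMS replicates 2 and 3. BUPS1 stood at 12.76, 35.17 and 36.49 FPKM in LMS and at 854.4, 811.63 and 812.39 in VC. LLG3, a GPI-anchored co-receptor, stood at 0, 134.35 and 59.4 FPKM in LMS and at 1326, 1339 and 1353 in VC. Without LMS replicate 1 the differences of BUPS1 and LLG3, 32.5 and 37.7 points, became 24.4 and 10.7, under the 25 points required.

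The ROP effectors parted ways. RIC3, chosen after its values were seen, stood at 11.79, 0 and 18.49 FPKM in LMS and at 1567, 799.87 and 795.8 in VC. RIC4 was the 1 lost member of the list, at 235.41, 31.21 and 74.98 FPKM in LMS and 0 in every VC library. In tobacco pollen tubes RIC3 is known for calcium entry and RIC4 for actin assembly. RIC4 was also listed at 0 in all 3 SC libraries. Against SC, 21 of 27 tested members of the receptor list were higher in VC and 1 was lower, against 13.1% and 27.3% of all tested genes.

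Phosphoinositide enzymes, which make and cleave the lipid signals of the tube apex, showed 8 gained, 7 of them with the higher mean FPKM, and 1 lost of 12, with a median of 49.2 points. PLC5, a phospholipase C, stood at 0, 0 and 2.39 FPKM in LMS and at 703.47, 610.16 and 727.53 in VC. PIP5K5, a kinase that makes the membrane lipid PI(4,5)P2, stood at 1.96, 3.79 and 4.24 FPKM in LMS and at 577.59, 464.7 and 520.13 in VC. PIP5K2 was the lost member, at 26.63, 17.34 and 11.91 FPKM in LMS and 0 in each VC library. PIP5K1 was called gained at 9.07, 0.53 and 0.61 FPKM in LMS and 0.58, 0.48 and 0.49 in VC, so its gain rests on the ranks of low values.

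Secretion and small GTPases had 17 of 32 gained, 16 of the 17 with the higher mean FPKM, and 2 lost, with a median of 28.1 points. EXO70C1, an exocyst subunit of pollen, stood at 0, 0.78 and 0.67 FPKM in LMS and at 89.06, 69.72 and 69.24 in VC. SYP125, a pollen syntaxin, stood at 0, 0 and 17.4 FPKM in LMS and at 334.1, 486.72 and 483.84 in VC. RABA1h stood at 0, 8.88 and 0 FPKM in LMS and at 383.63, 395.75 and 413.19 in VC. RABA4B, a GTPase of root hair tips, was lost, from 31.21, 57.65 and 58.02 FPKM in LMS to 0 in all VC libraries.

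Wall genes were mixed. Of 28 pectin and wall enzymes, 11 were gained (39.3%) and 2 lost (7.14%), against 19.0% and 18.4% over all loci. CALS5, the callose synthase of the microspore wall, was listed at 0, 0.33 and 0 FPKM in LMS and stood at 343.26, 406.17 and 423.41 in VC. CSLD4, a cellulose synthase-like enzyme of tube walls, stood at 0, 4.66 and 4.01 FPKM in LMS and at 489.54, 479.96 and 500.8 in VC. PPME1, a pectin methylesterase, stood at 6.82, 95.19 and 12.19 FPKM in LMS and at 764.41, 792.5 and 868.54 in VC, with a log2 fold change over SC of 2.47 (SE 0.34, limma adjusted p = 0.000187). VGD1, another pectin methylesterase, was not called, since it stood at 152.4, 680.88 and 539.77 FPKM in LMS already and at 1394, 1599 and 1313 in VC. QRT3, a polygalacturonase that frees the microspores of a tetrad, was lost, at 35.41, 52.08 and 51.94 FPKM in LMS and 0 in each VC library. Over the 137 pectin lyase-like and pectin methylesterase proteins by annotation, 31 were gained (22.6%), 28 of them with the higher mean FPKM, and 14 were lost (10.2%). The gained share was near that over all loci.

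Of 11 arabinogalactan proteins and extensins, 4 were gained, 36.4% against 19.0% over all loci, and none was lost. Of the 4, 3 stood at 5 FPKM or more in all VC libraries. LRX8, a leucine-rich extensin of pollen tube walls, stood at 0.22, 25.29 and 16.11 FPKM in LMS and at 1863, 776.74 and 736.38 in VC. AGP6 was among the 7 not called, at 28.66, 395.44 and 203.15 FPKM in LMS and at 2031, 1129 and 1026 in VC, since it ranked high in LMS replicates 2 and 3 already.

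Transcription factors of late pollen had 8 of 12 gained and none lost, with a median of 37.8 points. Of the 8, 7 stood at 5 FPKM or more in all VC libraries. The exception, MYB97, stood at 0, 0 and 1.38 FPKM in LMS and at 0, 0.6 and 1.67 in VC. AGL65, a MIKC* MADS factor of pollen maturation, stood at 9.1, 3.93 and 2.64 FPKM in LMS and at 595.53, 985.72 and 917.39 in VC. AGL104, a MIKC* partner chosen after its values were seen, stood at 5.56, 11.19 and 14.23 FPKM in LMS and at 403.66, 666.53 and 642.92 in VC. WRKY2 stood at 0.24, 7.67 and 4.67 FPKM in LMS and at 82.65, 70 and 79.71 in VC. LBD22, on the microspore list, was listed at 0 in all LMS libraries and stood at 131.22, 149.96 and 154.37 FPKM in VC. These factors were all called gained, which requires that their ranks do not overlap between the stages.

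Sugar and water transport separated by member. Of 19 sugar transporters, 8 were gained (42.1%), 5 of them with the higher mean FPKM, and 3 were lost (15.8%). The shares over all loci were 19.0% and 18.4%, so only the gained share stood apart. SWEET5, a sugar exporter named for vegetative cell expression, stood at 5.62, 0 and 12.19 FPKM in LMS and at 76.37, 121.13 and 111.22 in VC. SWEET8 (RPG1), needed for the microspore wall pattern, went the other way, from 280.9, 323.18 and 299.5 FPKM in LMS to 0.62, 3.54 and 1.59 in VC. SUC2 and STP6 were called gained with VC values of at most 1.13 FPKM, so their gain rests on the ranks of low values. Of 16 aquaporins, 3 were gained and 8 lost, with a median of −35.6 points. The plasma membrane channel PIP1;2 stood at 1213, 224.11 and 590.82 FPKM in LMS and at 0, 0 and 0.03 in VC. TIP1;3, a vacuolar aquaporin of pollen, stood at 0, 5.97 and 3.47 FPKM in LMS and at 43.56, 44.13 and 46.43 in VC. PIP1;2 was highest in LMS replicate 1, where the tapetum marker sum was also highest; whether both go together was not tested.

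Part of the sperm and cell cycle genes were gained as well, and most members of both lists stood higher in SC than in VC. Of 16 sperm genes 12 were gained and none lost, 10 of the 12 with the higher mean FPKM, with a median of 46.5 points. DAZ3, a sperm zinc-finger protein, was listed at 0 in each LMS library and stood at 132.87, 200.14 and 159.61 FPKM in VC, but at 8734, 8173 and 16825 FPKM in SC, a log2 fold change of VC over SC of −6.03 (SE 0.27, limma adjusted p = 7.75e-08). GEX1, a nuclear fusion protein, stood at 0.72, 0.56 and 0 FPKM in LMS and at 32.03, 35.35 and 28.68 in VC, and was lower in VC than SC at −4.45 (SE 0.31, limma adjusted p = 1.1e-06). All 16 tested sperm genes were lower in VC than in SC. The summed sperm markers reached 237.06 to 296.8 FPKM in VC, and whether sperm RNA in the VC sort accounts for the gained sperm genes was not tested. GCS1, the gamete fusogen, was called gained by 27.3 points although its mean FPKM was lower in VC, at 12.82, 1.2 and 8.67 FPKM in LMS and 0.23, 2.68 and 2.19 in VC. Its call ended without LMS replicate 2 (19.0 points) and without VC replicate 2 or 3 (24.4 and 24.97 points).

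Of 48 cell cycle and replication genes, 19 were gained and 3 lost, 13 of the 19 with the higher mean FPKM, with a median of 21.0 points. AUR2, an Aurora kinase of mitosis, stood at 0.38, 8.93 and 11.87 FPKM in LMS and at 552.83, 565.43 and 584.66 in VC. CYCD7;1, a D-type cyclin, stood at 0, 27.15 and 7.85 FPKM in LMS and at 144.95, 260.44 and 208.02 in VC. In SC, 39 of the 47 tested members were higher than in VC, against 27.3% of all tested genes, and CYCD7;1 averaged 13332 FPKM there. The lost members were CDKB2;1, a mitotic kinase, at 50.19, 21.9 and 19.71 FPKM in LMS and 0, 0.05 and 0 in VC, the replication clamp PCNA1, and the inhibitor KRP7. KRP7 stood at 233.47, 287.36 and 176.09 FPKM in LMS and at 0.4, 1.19 and 1.45 in VC. Without LMS replicate 1 the count of lost members was 5.

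The genes lost most, the 15 with at least 20 FPKM in LMS and the largest fall in rank, were listed at 0 in every VC library. They include genes of green tissue and of the anther coat beside others of varied or unknown role. RBCS1A (AT1G67090, chromosome 1, 25048158 to 25049667), the small subunit of Rubisco, stood at 6872, 6421 and 7214 FPKM in LMS, 80.2 points above VC in rank. LHB1B2 and CAB2, light-harvesting proteins of photosystem II, belong to a family of near-identical copies whose reads may be split. LHB1B2 stood at 1551, 1669 and 2072 FPKM and CAB2 at 718.02, 731.17 and 729.4 FPKM. GRP19 (AT5G07550), a pollen coat oleosin-like protein made in the tapetum, stood at 2846, 3221 and 3426 FPKM. ATA7 (AT4G28395), an anther lipid transfer protein, stood at 1122, 966.08 and 873.5 FPKM. In each of the 15 genes every LMS library stood far above the zeros of VC, though the LMS values of MLP423 spread from 589.18 to 1016.47 FPKM.

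MSP2 (AT5G46795), the microspore gene whose promoter is printed above, stood at 707.89, 683.92 and 817.59 FPKM in LMS. MAP70-3, a microtubule-associated protein, stood at 2492, 2253 and 2267 FPKM, and LTP12, a lipid transfer protein, at 2260, 2313 and 2276 FPKM. AT2G07751 and AT2G07708 match the mitochondrial genome, so their reads cannot be told apart from organelle RNA, which total RNA keeps. The remaining 5 were AT1G68875 (uncharacterized), SBT5.4 (a subtilase), KIN2 (a cold-responsive protein), AT1G23570 (a hypothetical protein) and MLP423 (annotated as MLP-like). Their LMS means ran from 755 FPKM for MLP423 to 1498 FPKM for AT1G68875.

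Photosynthesis had the largest share of lost members among the 29 lists, 48 of 64, with 2 gained and a median of −56.5 points. PSBO1, of the oxygen-evolving complex, stood at 429.28, 452.63 and 426.78 FPKM in LMS and 0 in each VC library. LHCB3 was not called, since it kept 4.99, 7.96 and 4.21 FPKM in VC against 1021, 965.77 and 774.25 in LMS, 23.0 points lower in rank. The gained members, PSBP-2 and PPD1, stood at 1.53 FPKM or less in every library of both stages, neither with the higher mean FPKM in VC. Without VC replicate 3 the gained count was 1, as the difference of PPD1 went from 28.0 to 19.8 points and its call ended. Microspores lie inside green buds, and the part of bud tissue in these values was not tested. Of 26 tapetum and sporopollenin genes, 12 were lost and none gained. EXL4, an extracellular lipase of the pollen coat, stood at 501.16, 495.87 and 418.31 FPKM in LMS and 0 in each VC library. AMS, the tapetum bHLH regulator, was not called, at 100.92, 87.15 and 76.68 FPKM in LMS and 7.22, 3.92 and 4.52 in VC.

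**Figure D4:**
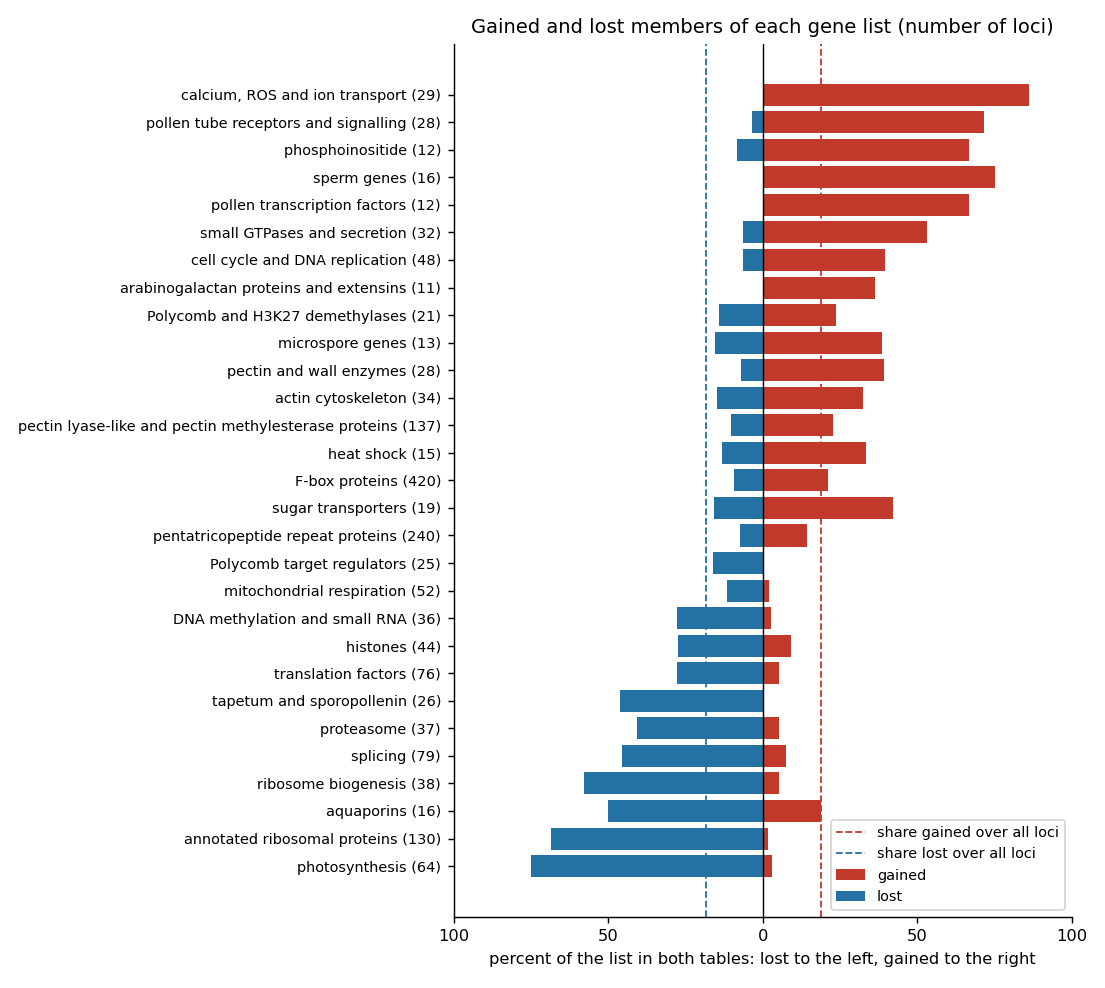
For each gene list, the percent of its loci in both tables that were lost (left) and gained (right) from LMS to VC, with the number of loci beside the name. Ion transport, receptors and phosphoinositide enzymes lie to the right and photosynthesis, ribosomal proteins and ribosome biogenesis to the left of the 19.0% gained and 18.4% lost over all loci.

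Genes of the translation machinery were lost more often than gained. The median LMS percentile was 97.9 for ribosomal proteins, 83.8 for ribosome biogenesis and 82.7 for translation factors. Many members thus ranked too high in LMS to be called gained. Of 130 annotated ribosomal proteins, 89 were lost and 2 gained, 1 of the 2 with the higher mean FPKM, and their median percentile was 97.9 in LMS and 58.5 in VC. The gained count was 4 without LMS replicate 1 and 1 without LMS replicate 3. AT3G45030, a small-subunit protein of the S10p/S20e family, stood at 766.99, 725.63 and 548.17 FPKM in LMS and 0 in every VC library. Against SC, also nuclei in the same table, 80 of 127 tested members were lower in VC and 4 were higher. Over all tested genes 27.3% were lower and 13.1% higher. Ribosome biogenesis had 22 of 38 lost and 2 gained, with a median of −35.3 points. FIB1, the fibrillarin that methylates ribosomal RNA, stood at 167.76, 164.81 and 216.66 FPKM in LMS and at 0, 0 and 0.12 in VC. TRM27, annotated as nucleolin-like, was gained, at 4.99, 12.28 and 15.33 FPKM in LMS and 1292, 860.79 and 827.71 in VC. In ribosome biogenesis the gained count was 1 without LMS replicate 1 and 1 without LMS replicate 2. Of 76 translation factors 21 were lost and 4 gained, 1 of the 4 with the higher mean FPKM. AT5G10630, a gained factor, stood at 3.25 FPKM or less in every library.

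Splicing and protein turnover genes ranked lower too, each with exceptions. The median LMS percentile was 85.3 for splicing, 82.9 for proteasome and 88.3 for mitochondrial respiration genes. Many of them thus ranked too high in LMS to be called gained. Of 79 splicing genes 36 were lost and 6 gained, 4 of the 6 with the higher mean FPKM. AT2G18740, an Sm core protein of the spliceosome, stood at 136.14, 163.84 and 305.81 FPKM in LMS and 0 in each VC library, while AT3G56790, annotated as RNA splicing factor-like, stood at 0.91, 4.22 and 9.87 FPKM in LMS and at 1014, 796.21 and 838.38 in VC. Of 37 proteasome genes 15 were lost and 2 gained, neither of the gained with the higher mean FPKM, and PAE2, a core alpha subunit, stood at 99.48, 114.74 and 242.05 FPKM in LMS and at 0, 0.07 and 0.05 in VC. Of 52 mitochondrial respiration genes 6 were lost (11.5%, against 18.4% over all loci) and 1 was gained without a higher mean FPKM in VC. Without LMS replicate 3 the gained count was 2. Of 15 heat shock genes 5 were gained (33.3%), 3 of them with the higher mean FPKM, and 2 were lost (13.3%). The shares over all loci were 19.0% and 18.4%. HSP90.2, a cytosolic chaperone, stood at 598.27, 731.73 and 715.96 FPKM in LMS and at 4.62, 1.77 and 1.45 in VC, and its close copy HSP81-3 stood at 589.21, 684.8 and 622.7 FPKM in LMS and at 1.79, 0.56 and 1.58 in VC, with reads that may be shared between both.

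Chromatin genes were mixed. REF6, the H3K27 demethylase that the series is built around, stood at 77.73, 108.15 and 124.86 FPKM in LMS and at 1.1, 0.42 and 0.48 in VC, 31.4 points lower in rank. ELF6, its paralogue, stood at 12.56, 11.69 and 15.54 FPKM in LMS and at 23.83, 16.22 and 18.64 in VC, 33.4 points higher. The 2 demethylases thus went opposite ways in rank, but the FPKM of ELF6 changed little, from at most 15.54 in LMS to at least 16.22 in VC. Far fewer loci reached 1 FPKM in VC than in LMS, so a like FPKM ranks higher there. RING1A, a ubiquitin ligase of Polycomb complex 1, stood at 152.01, 194.78 and 181.39 FPKM in LMS and at 1.7, 0.94 and 1.05 in VC. Over the 21 Polycomb and demethylase genes, 5 were gained, 4 of them with the higher mean FPKM, and 3 were lost, shares not far from those over all loci. RING1B and FIS2 were among the gained with at most 2.33 FPKM in every library.

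Of 25 flower and meristem regulators known as Polycomb targets, none was gained and 4 were lost, a lost share of 16.0% against 18.4% over all loci. Their median LMS percentile was 42.6, so many ranked too low in LMS to be called lost. By FPKM, 5 of the 25 were switched off, against 21.9% over all loci. SEP3, a floral MADS factor, stood at 228.24, 102.18 and 124.25 FPKM in LMS and 0 in each VC library, and AP3, a petal and stamen factor, at 27.91, 63.28 and 52.13 FPKM and 0. These organ identity genes are known from floral tissue, and the part of anther or other bud RNA in their LMS values was not tested. The lost count was 7 without LMS replicate 2 and 7 without LMS replicate 3.

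DNA methylation and small RNA genes had 10 of 36 lost (27.8%) and 1 gained (2.78%), against 18.4% and 19.0% over all loci. AGO4, the Argonaute of RNA-directed DNA methylation, stood at 174.15, 196.13 and 208.93 FPKM in LMS and at 0.02, 0 and 0.08 in VC. CMT3, the CHG methyltransferase, stood at 118.67, 73.32 and 92.33 FPKM in LMS and at 0.34, 0 and 0 in VC. ROS1, a DNA demethylase, stood at 64.56, 59.2 and 64.33 FPKM in LMS and at 0, 0.19 and 0.03 in VC, and its relative DML2 was lost as well. DDM1, the remodeller that gives methyltransferases access to heterochromatin, was the 1 gained member, at 5.9, 2.85 and 10.85 FPKM in LMS and at 56.81, 76.25 and 63.31 in VC. The lost members included enzymes that add DNA methylation and enzymes that remove it. The gained count was 2 without LMS replicate 2.

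Histones had 12 of 44 lost (27.3%) and 4 gained (9.09%), against 18.4% and 19.0% over all loci. Their median LMS percentile was 89.8, so many ranked too high in LMS to be called gained. Of the 4 gained, 3 had the higher mean FPKM. HTB9, an H2B gene, stood at 168.43, 144.14 and 118.36 FPKM in LMS and 0 in each VC library. AT5G02570, another H2B gene, stood at 5.3, 92.88 and 36.79 FPKM in LMS and at 231.77, 579.68 and 715.78 in VC, and its 30.9 points became 15.4 without LMS replicate 1. Reads of the H2B-GFP transgene, which VC carried and LMS did not, may enter H2B genes, which was not tested. MGH3, the sperm H3 that is also HTR10, was gained by 40.1 points at 6.89, 17.29 and 12.83 FPKM in LMS and 61.15, 42.73 and 35.26 in VC. Both lines carried the HTR10-RFP fusion, whose reads may enter this gene at either stage.

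Shares within a gene family do not depend on the scale of a table, and several families changed their leading member. Near-identical members can share reads, and how the authors assigned them is not given in the sources used here. ACT7, a vegetative-tissue actin, held 45.5%, 12.03% and 29.9% of actin FPKM in the LMS libraries and 0 in each VC library. ACT12, a pollen actin, held 10.2%, 13.1% and 5.16% in LMS and 40.1%, 50.5% and 48.1% in VC. ADF7, a pollen actin depolymerizing factor, held 9.18%, 19.8% and 8.78% in LMS and 95.1%, 95.3% and 95.5% in VC. The LMS and VC shares of ACT7, ACT12 and ADF7 did not overlap. Members were named for holding over 10% of their family at either stage, so this is no count over all members.

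Profilins, tubulins and myosins showed the same exchange. PFN2 held 44.0% ± 9.94 (SD, n = 3) of profilin FPKM in LMS and 1.29% ± 0.89 in VC, while PRF4 and PRF5 held 45.3% and 49.3% in VC. Both were present in LMS already. PRF4 stood at 61.48, 77.17 and 79.14 FPKM there and PRF5 at 30.51, 75.08 and 33.71, against 131.91, 102.07 and 220.99 for PFN2. TUA1, the pollen alpha tubulin, held 1.13%, 9.28% and 9.26% in LMS and 82.2%, 80.8% and 81.1% in VC. TUB9 held 20.2% of beta tubulin in LMS and 56.2% in VC, and TUB4 17.1% in LMS and 39.1% to 40.9% in VC, whereas TUB2 held 23.3% in LMS and 0.0043% in VC. Among class XI myosins, the motors of organelle streaming, XIE led in LMS at 52.0% and XIJ in VC at 38.9%, with XIA at 25.96%. These shares did not overlap between the 3 LMS and the 3 VC libraries for TUA1, TUB9, TUB4, TUB2, XIE, XIJ and XIA. They too were named for their large shares, so this is no count over all members.

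Membrane and wall enzymes were exchanged more sharply. HA8, a plasma membrane proton pump of pollen, held 5.29%, 18.9% and 13.9% in LMS and 91.3%, 91.5% and 90.8% in VC, and HA9 held 29.8%, 39.2% and 48.1% in LMS against a mean of 0.202% in VC. CALS5 held 0, 0.317% and 0% of callose synthase FPKM in LMS and 83.5%, 85.3% and 84.2% in VC. GSL10 and GSL12, callose synthases of which the first is known from microspore division, held 35.7% and 34.2% in LMS and 1.91% and 0.007% in VC. RABA1i and RABA1h together led the RABA GTPases in VC, at 38.9% and 34.4%, from 2.96% and 0.518% in LMS. RABA1i stood at 0, 50.77 and 0 FPKM in LMS and RABA1h at 0, 8.88 and 0, so both LMS means rest on replicate 2. GRF12, a 14-3-3 protein, held 0.263%, 26.5% and 8.43% in LMS and 80.1%, 82.0% and 83.2% in VC. UBC9, a ubiquitin-conjugating enzyme, held 5.26%, 3.71% and 3.80% in LMS and 52.1%, 68.0% and 66.1% in VC.

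Histone H3 and some ribosomal groups narrowed to fewer genes. HTR8 and HTR5, which encode the replacement variant H3.3, held 28.3% and 21.5% of H3 FPKM in LMS and 53.9% and 40.3% in VC. HTR4, an H3.3 gene as well, went from 17.9% to 1.61%, and HTR2, a canonical H3.1 gene, from 16.0% to 0.827%. AT3G04840 held 37.1%, 29.7% and 37.3% of the S3Ae group in LMS and 100%, 100% and 94.3% in VC. AT3G02560 held 30.2% of the S7e group in LMS and 96.6% in VC, and AT5G15520 held 11.4% of the S19e group in LMS and 79.6% in VC. In SC the S19e group was led by AT5G61170 at 89.2%, so the leading gene differed between both nuclei. Family sums of ribosomal groups are small in VC, which makes single shares there uncertain.

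**Figure D5:**
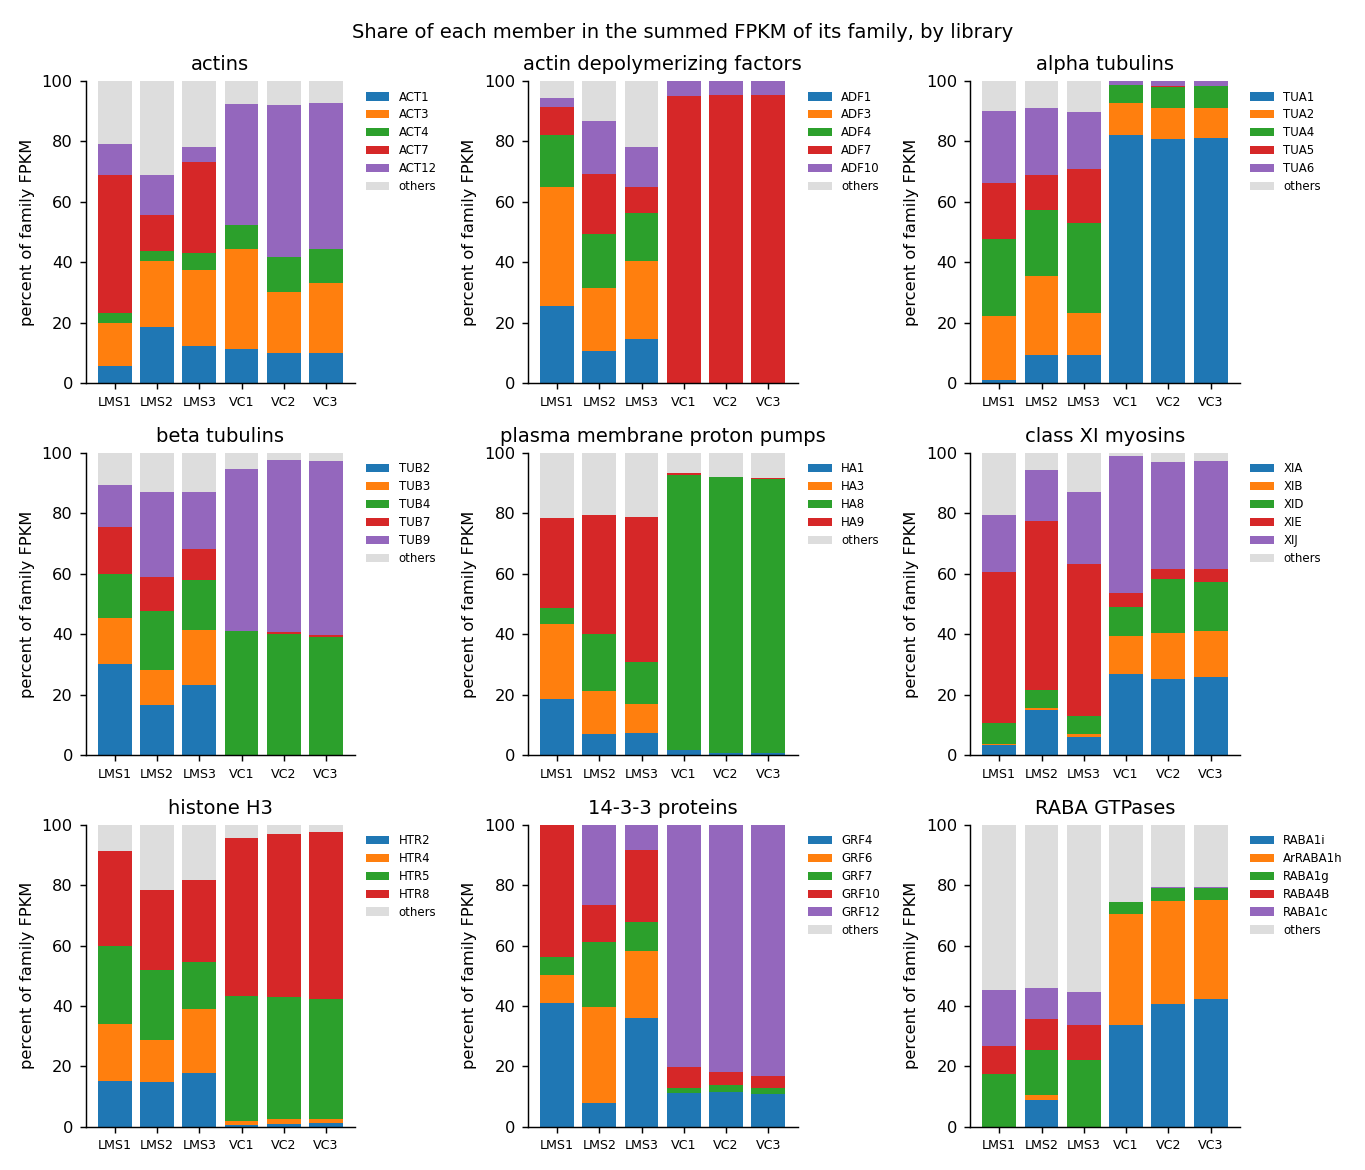
Share of each member in the summed FPKM of its family in every LMS and VC library, as stacked bars from 0 to 100 percent, for selected families. ADF7, TUA1 and HA8 each take 80.8% or more of their family in all 3 VC libraries and at most 19.8% in each LMS library.

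Isoform shares within a locus were compared in the same way, over the 23578 isoforms listed for both microspores and pollen nuclei. Isoforms listed for only 1 of them were left out of the sums. A share is therefore of the isoforms compared and not always of the whole locus. Of 486 loci with at least 2 such isoforms, summing to 5 FPKM or more in all 6 libraries, 44 (9.05%) met the rule. It required an isoform whose share did not overlap between the stages and differed by at least 50 percentage points. AT4G08170.3, of an inositol 1,3,4-trisphosphate kinase, held 0.119%, 0.061% and 0.144% of the isoforms compared in LMS and 100%, 92.2% and 97.5% in VC. RPE, an epimerase of the Calvin and pentose phosphate cycles, used AT5G61410.2 for 12.6%, 3.13% and 10.4% in LMS and 100%, 99.3% and 98.9% in VC. AGC1.5, a kinase that phosphorylates pollen tube ROPGEFs, used AT3G12690.1 for 9.68%, 0% and 10.6% in LMS and 67.0%, 71.2% and 78.7% in VC. Estimated isoform shares rest on few reads at low levels, and 15 loci met the rule where 20 FPKM was required.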

How the data were processed

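The members, gene lists and alternatives were chosen with earlier results of these data known. The authors deposited FPKM per gene and per isoform, in separate tables for microspores and pollen nuclei. The submitters' processing notes name RSEM 1.3.1, StringTie 1.3.5, HISAT2 2.1.0 and Bowtie2 (2.3.5 for pollen), with TAIR10 as build. Settings and the handling of multiply mapped reads: not given in the sources used here. In the microspore table, 2 stray lines were left out. The files hold no counts and steps between low values did not establish the depth (50.1% to 64.6% of them lay within 0.2 of a whole fragment, against 40% for an even spread), so no interval is given. A value of 1 fragment per effective kilobase, estimated from the lowest values, was 0.365 to 0.538 FPKM in LMS and 0.0382 to 0.0582 in VC, so low LMS values are the least precise.

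Percentiles were computed over the common loci (Python 3.11.15, pandas 2.3.3, numpy 2.4.6), and the call rules are given with their counts. WT VC was compared with WT SC by limma 3.58.1 (R 4.3.3, trend) on log2(FPKM + 1), with 1 mean per group over the 12 pollen libraries. Genes reaching 1 FPKM in 3 or more of them were tested. The 12 include the V-Mt VC and V-Mt SC libraries, which enter this filter and the estimate of spread. With only the 6 WT libraries, 11043 genes were tested, of which 2641 were higher and 4896 lower. The 2-sided p-values were Benjamini-Hochberg adjusted (0.05) and reflect a spread between samples that may be technical. Fold changes on this scale understate low genes. Exact permutation of 3 against 3 libraries cannot go below p = 0.10, so none was run. Both procedures were tested on simulated data.

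Genes named are the 15 gained and 15 lost with the largest difference at 20 FPKM or more, up to 4 gained and 4 lost members per list (or 2 nearest the median), family members over 10% of their family, the markers, and those said to be chosen after their values were seen. Lists came from textbook knowledge or, for ribosomal proteins, biogenesis, translation, splicing, proteasome, respiration, pectin, F-box and pentatricopeptide families, from product names in the TAIR10.1 annotation. That annotation, whose build name differs from the authors' TAIR10, matched 20505 of the 20582 loci by locus tag and gave names, coordinates and promoter sequences; the deposited tables hold no coordinates. Loci with at least 95% identity over 80% of their length to an organelle genome (blastn 2.17.0) numbered 33.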

Additional observations from a re-analysis of the deposited data

How the results depend on the processing

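Counts of gained and lost loci depend on the threshold: at 40 points they were 2078 and 2136. With median-ratio scaled log2 values 3004 were gained and 6818 lost. Of the 3901 gained loci only 2280 kept their call there, and all 3785 lost loci kept theirs. Under the other alternatives, ranks within length classes, other ties and quantile normalization included, both stayed within 1.5 times, and no locus was called the other way under any of them. Leaving out 1 library gave 3952 to 4188 gained, 3867 to 4183 lost, 146 to 276 switched on and 4584 to 5302 switched off. Isoform switches numbered 15 at 20 FPKM per locus and 74 at 30 points. Of the named genes, GCS1 and AT5G10630 turned to −0.11 each on the median-ratio scaled log2 scale, and the cause was not tested. Genes higher in VC than SC numbered 4022 with median-ratio scaling, 4514 with quantile normalization and 2036 to 2469 without 1 library, and those lower 4484 to 5865 without 1 library. VC and SC libraries share only replicate numbers, which the labels do not tie to a pairing (correlations 0.08, −0.06 and 0.15, and VC replicate 2 correlated best with another number), and the fit with a replicate block called 2498 higher and 5309 lower. The LMS and VC counts come from ranks and no test, so no block was fitted for them. The 3 further settings chosen after seeing the data were VC replicates 2 and 3 counted as 1 (3943 gained, 3837 lost), loci of either table (4043 and 4296), and no organelle-like loci (3895 and 3774). Low values limit most: a gene at a few FPKM in LMS rests on few fragments.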

Other observations

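Some vegetative genes had no row in the microspore table and so entered no rank comparison. That table lists no locus at 0 in all of its libraries. The counts of genes gained and switched on thus leave out vegetative genes not listed there. Of 4394 such loci, 128 stood at 5 FPKM or more in all 3 VC libraries. The highest was AT3G07830, a pectin lyase-like protein, at 1845, 2807 and 2500 FPKM. BGLU35, a beta glucosidase by annotation, stood at 1069, 974.13 and 1237 FPKM. RBOHJ, the partner of RBOHH in superoxide production at the tube tip, stood at 119.92, 172.47 and 198.95 FPKM. The microspore table held 380 loci without a row in the pollen table, of which 54 stood at 5 FPKM or more in all LMS libraries.

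Of 420 F-box proteins, which pick targets for ubiquitination, 88 were gained and 39 lost, or 21.0% and 9.29% against 19.0% and 18.4% over all loci. Of the 88, 59 had the higher mean FPKM in VC and 31 stood at 5 FPKM or more in all VC libraries. AT1G67623 was listed at 0 in each LMS library and stood at 143.03, 365.92 and 345.64 FPKM in VC. Of 240 pentatricopeptide repeat proteins, which act on organelle RNA, 34 were gained and 18 lost, or 14.2% and 7.5%, both under the shares over all loci. The median LMS percentile was 31.6 for F-box and 30.9 for pentatricopeptide repeat proteins, so many ranked too low in LMS to be called lost. By FPKM, 63 F-box and 36 pentatricopeptide repeat proteins were switched off, against 21.9% over all loci. Of the 34, 16 had the higher mean FPKM in VC and 11 stood at 5 FPKM or more in all VC libraries. AT2G42920 stood at 3.8, 3.74 and 1.41 FPKM in LMS and at 335.67, 313.61 and 313.19 in VC.

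Gains and losses also followed transcript length. In the shortest of 10 length classes the median difference was −8.43 points, with 12.2% gained and 28.4% lost, and in the longest class it was 5.40 points, with 25.4% gained and 11.9% lost. What links length to rank in these tables was not tested. Ranks taken within these classes gave 3709 gained and 3792 lost.

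The G-box core CACGTG was held by 7.32% of all promoters and by 23.4% of the 64 photosynthesis promoters, and by 7.09% of the promoters of lost genes.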
